A study of Homo sapiens with 4 samples.

Results

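Many protein-coding genes also give rise to transcripts that the gene annotation lists as processed transcripts, without an open reading frame. The 5348 transcripts described here were all those listed as processed_transcript whose gene name also has at least 1 protein_coding transcript in the deposited lists. They belonged to 3257 genes and were part of 34975 listed transcripts of 13300 gene names. The same genes had 9019 listed protein_coding transcripts, and 619 further processed transcripts came from genes with no listed coding transcript and were not members. Of the genes, 2083 had a single noncoding isoform and 678 had 2. GUK1, which codes for guanylate kinase, had the most, 13 of its 18 listed transcripts.

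The data came from RNA immunoprecipitation sequencing (RIP-seq), in which RNA that comes down from a cell lysate with an antibody is sequenced. The cells were HCCLM3, a human hepatocellular carcinoma (HCC) cell line, with no other treatment named in the labels. KIAA1429 RIP used an antibody against KIAA1429 and IgG RIP used normal IgG as the background, with 2 libraries in each group and 4 in all. The study used this comparison to look for transcripts bound by KIAA1429.

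KIAA1429, also called VIRMA, is the scaffold of the methyltransferase complex that places N6-methyladenosine (m6A) on mRNA, mostly near stop codons and in 3′ untranslated regions. A noncoding isoform shares exons with the coding mRNAs of its gene, and often lacks the start or the end of the reading frame or retains part of an intron. Short reads from shared exons fit both kinds of transcript, so only reads over an isoform's own bases or own splice junctions tell them apart.

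Of the 5348 members, 4909 (91.8%) had the same identifier, start and end in the GENCODE annotation (release 44, on GRCh37). Their median spliced length was 620 bases in 3 exons, against 2142 bases in 8 exons for the coding transcripts of the same genes. The letters GGAC, one form of the m6A consensus, were searched on the transcript's strand. They occurred 4.02 times per kb in the members and 3.83 times per kb in the coding transcripts, and 90% and 98% of these transcripts held at least 1 copy. Among 4570 members whose exons could be set against all listed coding transcripts of their gene, the median member had 186 bases of its own, 30.7% of its length. For 558 of them every base also lay in a listed coding exon, and 89 had neither a base nor a junction of their own. Distances between 3′ ends were taken along the genome, with introns counted. The 3′ end lay within 50 bases of a listed coding 3′ end in 616 members and at least 1000 bases upstream of the median coding 3′ end in 3125.

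The later annotation gave most members a type that fits the listing: 4684 were protein-coding transcripts with no defined coding sequence and 294 retained introns. However, 152 members were listed there as protein_coding and 69 as targets of nonsense-mediated decay, so "noncoding" below means the type in the deposited lists. The sequences below show why such transcripts are hard to separate from their mRNAs. Each is 30 bases of GRCh37 across the splice junction by which the member differed from every listed coding transcript of its gene, 5′ to 3′ on the transcript's strand, with the 15 bases after the junction in capitals. They are the junctions of 4 of the most abundant members (RPL10A-204, RPL7A-205, RPL41-201 and RTL8A-204), of 3 members of genes with a large difference of share between the groups (PRPSAP2-213, NUDT14-205 and IFT43-204) and of 2 members of more abundant genes with such a difference (SRGN-202 and EMP1-209).
RPL10A-204 (chr6:35437048-35437062 and chr6:35437158-35437172, plus strand): atgtgaacgctccggGCTTAAGTCCACTCC
RPL7A-205 (chr9:136215229-136215243 and chr9:136215777-136215791, plus strand): cacggagacaccgagCCGAAAGGAAAGAAG
RPL41-201 (chr12:56510700-56510714 and chr12:56510973-56510987, plus strand): ggtgggagagagaagTGGAGGAAGAAGCGA
RTL8A-204 (chrX:134185947-134185961 and chrX:134185384-134185398, minus strand): aacgacgccctgaagACCTACGCTACCACT
PRPSAP2-213 (chr17:18769251-18769265 and chr17:18775896-18775910, plus strand): aaagaaaattgcagaAAACAAGAGTACAAA
NUDT14-205 (chr14:105639818-105639832 and chr14:105639584-105639598, minus strand): cacccaccccacctgGTCTGGAGTGGGACT
IFT43-204 (chr14:76452637-76452651 and chr14:76455228-76455242, plus strand): cggcctttcttcccgAGGGCCAAGATGGGT
SRGN-202 (chr10:70847978-70847992 and chr10:70863627-70863641, plus strand): aatcctcagttcaagAAAGACGAGAATCCA
EMP1-209 (chr12:13364460-13364474 and chr12:13367970-13367984, plus strand): gctggtatctttgtgGTCCACAGACCTACT
For RPL7A-205, PRPSAP2-213, SRGN-202 and EMP1-209 this junction was the whole of what set them apart, since they had 0 bases outside listed coding exons.

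All values are FPKM, fragment numbers scaled for the length of a transcript and for library size, given by the authors per transcript and library. As no read counts were at hand, library depth is unknown and counting error cannot be stated. The summed FPKM lay between 295600 and 340300 in the 4 libraries. All 13 hepatocyte markers were listed, with summed levels of 1560 to 1839 FPKM, mostly from the keratins KRT8 and KRT18, and with ALB at 53.5 to 76.3 FPKM and AFP at 99.1 to 127.8 FPKM, while 1 of 4 fibroblast, 1 of 3 leukocyte and 0 of 2 endothelial markers were listed. The listed fibroblast marker, COL3A1, had 7.46 to 15.2 FPKM and the leukocyte marker, CD68, had 28.7 to 72.2 FPKM. Every listed transcript had a mean of at least 0.5001 FPKM in 1 of the groups, so transcripts lower than that in both groups are outside these data.

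Noncoding isoforms made up a slightly smaller part of the KIAA1429 RIP than of the IgG RIP libraries. They held 3.51% and 3.66% of the library FPKM in IgG RIP against 3.21% and 2.99% in KIAA1429 RIP. Both KIAA1429 RIP libraries were below both IgG RIP libraries, with means of 3.10% ± 0.156 and 3.58% ± 0.112 (SD, n = 2 per group), a difference of -0.48 percentage points. The two-sided exact permutation p was 0.333, which is the smallest that 2 libraries against 2 can give. The coding transcripts of the same genes held 31.1% and 28.4% of the library FPKM in IgG RIP against 29.7% and 30.3% in KIAA1429 RIP, so these values overlapped.

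The share of a gene is the FPKM in its noncoding isoforms as a percentage of the FPKM of all its listed transcripts. Pooled over the member genes it was 10.1% and 11.4% in IgG RIP against 9.75% and 8.99% in KIAA1429 RIP. The groups did not overlap, with means of 10.8% ± 0.901 and 9.37% ± 0.537 (SD, n = 2 per group), but the gap between IgG RIP 1 and KIAA1429 RIP 1 was smaller than that between the IgG RIP libraries. The median share over the 3118 genes with a mean total of at least 1 FPKM was 6.95% and 7.39% in IgG RIP against 6.49% and 4.29% in KIAA1429 RIP. KIAA1429 RIP 2 was the lowest, and without it the difference was -0.73 in place of -1.78 points. The exact permutation p was again 0.333 for both measures, and the pooled difference ranged from -2.04 to -0.76 percentage points as each library was left out, with the smallest value when IgG RIP 2 was left out.

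**Figure D1:**
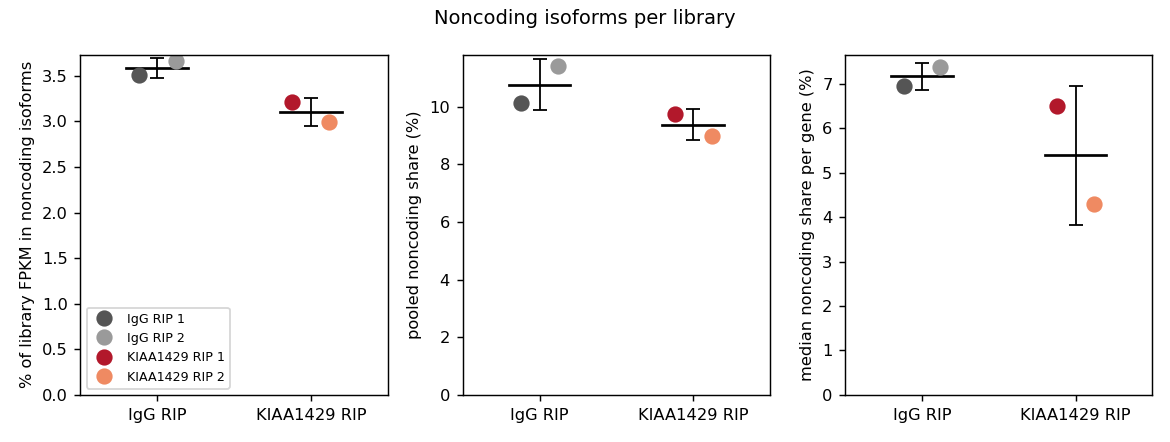
Percentage of the library FPKM in noncoding isoforms (left), their pooled share of the FPKM of their genes (middle) and the median share per gene (right), on axes that start at 0. Points are libraries, bars are group means and whiskers are SD (n = 2 per group). Both KIAA1429 RIP libraries lie below both IgG RIP libraries in each panel, at 2.99% and 3.21% against 3.51% and 3.66% on the left.

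Other transcripts also differed between the groups. The 619 processed transcripts of genes with no listed coding transcript were lower in KIAA1429 RIP as well, without overlap. They held 0.2804% and 0.2625% of the library FPKM in IgG RIP against 0.2531% and 0.2073% in KIAA1429 RIP. A lower library percentage was thus not particular to the members. Long intergenic noncoding RNAs (lincRNAs) held 4.73% and 7.55% of the library FPKM in IgG RIP against 3.78% and 3.60% in KIAA1429 RIP. The most abundant transcript of the libraries held 3.25% and 3.17% in IgG RIP against 5.34% and 5.80% in KIAA1429 RIP, and without it the members held 3.62% and 3.78% against 3.396% and 3.18%. The part of these classes in the lower library percentage of the members was not tested. The share of a gene, as defined above, uses only the transcripts of that gene, so transcripts of other genes do not enter it.

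Single genes were tested with limma on the share in percent. Of 3118 genes, 0 (0%) had an adjusted p under 0.05, and the lowest adjusted p was 0.247. With IgG RIP 1 left out 222 genes passed (212 of them lower), and with IgG RIP 2 left out 185 passed (176 lower). In those fits only the KIAA1429 RIP pair gave the spread. At an unadjusted p under 0.05, 75 genes (2.41%) had a higher and 95 (3.05%) a lower share in KIAA1429 RIP. The difference of the group means was below 0 for 1739 genes, above 0 for 1377 and 0 for 2, with a median of -1.22 percentage points. It was beyond 10 points upwards in 601 genes and downwards in 806. In 343 genes (11%) both KIAA1429 RIP libraries had a higher share than both IgG RIP libraries, and in 442 (14.2%) both had a lower share. Among the 2606 genes with a mean total of at least 5 FPKM these were 290 (11.1%) and 391 (15%).

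**Figure D2:**
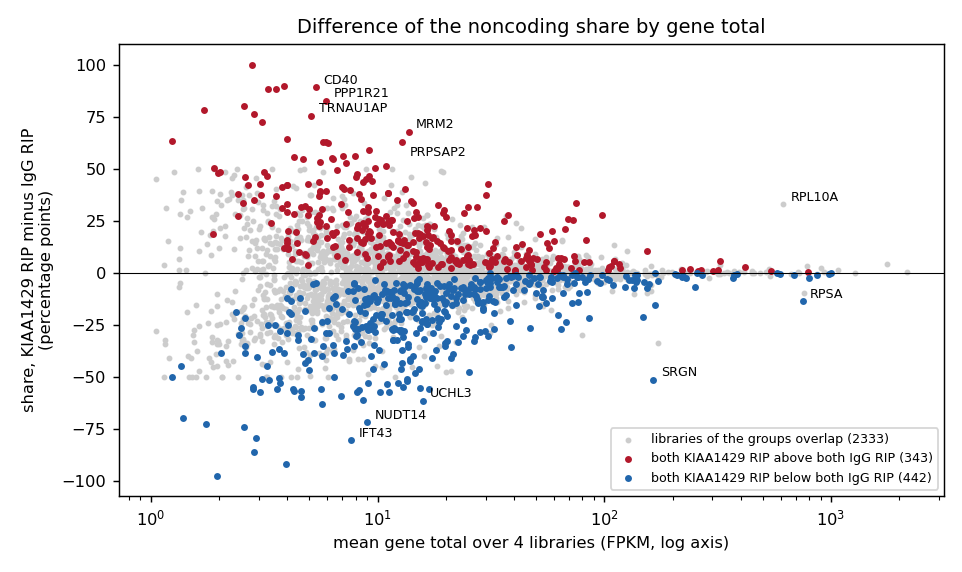
Difference of the mean noncoding share, KIAA1429 RIP minus IgG RIP in percentage points, against the mean gene total in FPKM (log axis) for 3118 genes. Coloured points are the 343 genes (red) and 442 genes (blue) whose libraries do not overlap between the groups, and the spread narrows as the gene total grows.

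The shares agreed poorly between libraries of the same group. Over the 3118 genes, the Spearman correlation of the share was 0.23 between the IgG RIP libraries and 0.30 between the KIAA1429 RIP libraries, and 0.25 to 0.28 between libraries of different groups. The gene totals of the same genes had a correlation of 0.86 to 0.90. Thus the shares of replicates were about as far apart as those of different groups, while the totals kept their order. These correlations are across genes, which are not independent replicates, and all values of a library share its preparation and depth.

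Abundant genes and genes with many transcripts had steadier shares. In the highest of 3 equal parts by gene total (median 42.4 FPKM) the correlation was 0.47 to 0.53 over the 6 pairs of libraries, and the median absolute difference of the share was 3.34 to 4.57 points. In the lowest part (median 5.03 FPKM) the correlation was 0.066 to 0.19 and the median absolute difference was 17.7 to 22.2 points. The correlation was 0.49 to 0.55 for genes with 6 or more listed transcripts and 0.037 to 0.15 for genes with 2. In all, 570 genes (18.3% of the 3118) went from a share of at most 10% in 1 library to over 50% in another, and only 45 genes were over 50% in all 4.

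**Figure D3:**
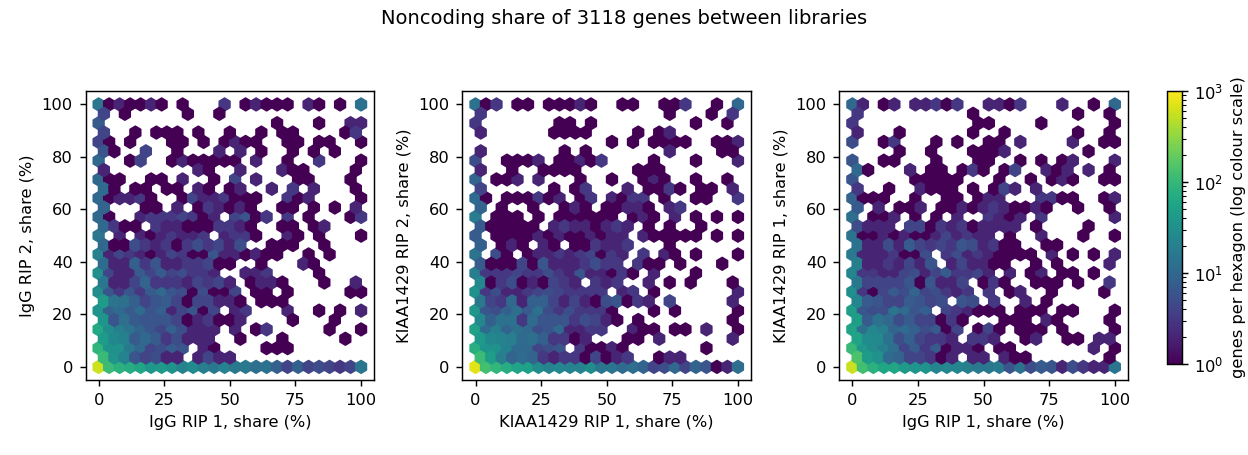
Noncoding share of 3118 genes in pairs of libraries, both axes in percent of the gene total, with the number of genes per hexagon on a log colour scale. The IgG RIP pair (left, correlation 0.23), the KIAA1429 RIP pair (middle, correlation 0.30) and a pair of different groups (right, correlation 0.25) look alike, with many genes along the axes that were at 0 in 1 library only.

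At the level of single transcripts, 2573 of the 5348 members had a mean of at least 1 FPKM, and 73% of all members were listed at 0 in at least 1 library, against 51.5% of the coding transcripts of the same genes. The test across all 23375 transcripts at that level was limma on log2(FPKM + 1). With both a log2 fold change over 1 in size and an adjusted p below 0.05 required, it called 0 transcripts (0%) and 0 members. At an unadjusted p under 0.05 and the same fold, 77 members were higher and 61 lower in KIAA1429 RIP, where 675 (2.89%) and 542 (2.32%) of all transcripts were.

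By the ratio of group means alone, 652 members (25.3%) were higher by 2-fold or more in KIAA1429 RIP, and 831 (32.3%) were lower by 2-fold or more. Among all transcripts these were 4662 (19.9%) and 4750 (20.3%), and among the coding transcripts of the same genes 1340 and 1341 of 6748 (19.9% each). So at a mean of at least 1 FPKM both directions were more frequent in the members than in all transcripts. Where the mean had to reach 5 FPKM, 59 of 318 members were higher and 63 lower by 2-fold or more. All transcripts were not counted at 5 FPKM, so a higher frequency in the members is not shown there. At 1 FPKM and with 1 library left out, the larger count lay with the group that kept both libraries. Without IgG RIP 1 it was 965 higher and 837 lower, and without IgG RIP 2 it was 916 and 714. Without 1 of the KIAA1429 RIP libraries the lower count was the larger. A member at 0 in the lone library and above 0 in the other group counts as 2-fold different. These counts therefore cannot tell whether the direction depends on single libraries. The members with a mean of at least 1 FPKM were also less often above 0. Of them, 42% were above 0 in all 4 libraries, against 60.3% of all transcripts at this level. The FPKM of both KIAA1429 RIP libraries lay above both IgG RIP libraries in 316 members (12.3%) and below them in 410 (15.9%), against 3557 (15.2%) and 3397 (14.5%) of all transcripts. At the same level, 105 members (4.08%) were above 0 in both KIAA1429 RIP libraries and listed at 0 in both IgG RIP libraries. The reverse held for 87 (3.38%), against 2.36% and 2.13% of all transcripts. Without a filter these were 202 (3.78%) and 230 (4.30%) of all members, against 3.20% and 2.96% of all transcripts. The order of the groups in the members thus turned with the filter. Such a member reaches the lower limit of the lists only through the group where it is above 0.

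The summed level of the members was also set out by their structure. Members with a 3′ end at least 1000 bases upstream in the genome held 4.73% and 5.19% of the summed FPKM of the member genes in IgG RIP. In KIAA1429 RIP they held 4.32% and 3.46%. Members that end within 50 bases of a coding 3′ end held 1.44% and 2.26% in IgG RIP against 1.98% and 2.17% in KIAA1429 RIP. The first class did not overlap between the groups and the second did, but the difference between the classes was not tested. All members with a 3′ end elsewhere than at a coding 3′ end were also lower, at 6.71% and 7.27% in IgG RIP against 6.10% and 5.31% in KIAA1429 RIP. Counted by member, 8.48% of the far upstream class were higher and 12.5% lower without overlap, close to the 9.74% and 13.0% of all members. Members with 0 own bases held 1.5% and 1.75% in IgG RIP against 1.18% and 1.44% in KIAA1429 RIP, again without overlap, while members with more own bases overlapped. By count this class went the other way, with 51 members higher (9.14%) and 43 lower (7.71%) without overlap, and abundant members such as RPL7A-205 and SRGN-202 belong to it. By length, members under 500 bases held 1.81% and 1.96% in IgG RIP against 1.67% and 1.43% in KIAA1429 RIP, and members over 1000 bases held 1.91% and 1.88% against 1.78% and 1.68%. Neither of these classes overlapped between the groups. The largest length class, the 2946 members of 500 to 1000 bases, did overlap. It held 5.24% and 6.44% in IgG RIP against 5.29% and 4.89% in KIAA1429 RIP.

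**Figure D4:**
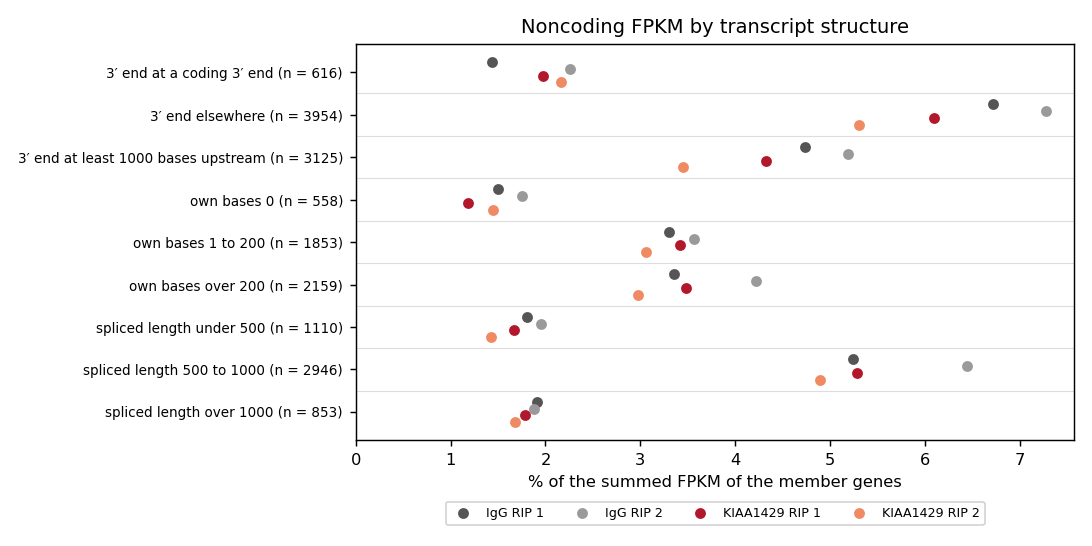
Percentage of the summed FPKM of the member genes held by noncoding isoforms grouped by the place of their 3′ end, by bases of their own and by spliced length, with 1 point per library and the number of members of each class. KIAA1429 RIP lies below IgG RIP for 3′ ends at least 1000 bases upstream in the genome (3.46% and 4.32% against 4.73% and 5.19%) and overlaps it for 3′ ends at a coding 3′ end.

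Of the 8 most abundant members, 6 were isoforms of ribosomal protein mRNAs, and the 8 held 7.41% to 18.9% of all member FPKM. Ribosomal protein genes have many processed pseudogenes, so their assignment is uncertain. RPL10A-204, an isoform of the large-subunit gene RPL10A at chr6:35436197-35438562, was listed at 0 and 487.5 FPKM in IgG RIP against 460.1 and 551 FPKM in KIAA1429 RIP. IgG RIP 1 alone was low, and in it the coding RPL10A-201 was high, at 349.1 FPKM against 117.6, 95.9 and 151.5 FPKM in the other libraries. The noncoding share of RPL10A was 16.1%, 82.6%, 84.0% and 80.4%, so its difference of 32.8 points came from 1 IgG RIP library, and without that library it was -0.45 points.

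RPL7A-205, at chr9:136215107-136218227, had 264.8 and 501.7 FPKM in IgG RIP against 118 and 528.3 FPKM in KIAA1429 RIP. KIAA1429 RIP 1 was low, and the groups overlapped. RPL41-201, at chr12:56510417-56511610, had 55.4 and 244.2 FPKM in IgG RIP against 248.2 and 300 FPKM in KIAA1429 RIP. RPS24-213 had 141 and 90.9 FPKM in IgG RIP against 219.8 and 244 FPKM in KIAA1429 RIP, without overlap, for a log2 fold change of 1.03 ± 0.34 (SE) and an adjusted p of 0.879 by limma. As RPS24 was also higher as a whole, at 993.9 and 976.3 FPKM in KIAA1429 RIP against 524.1 and 647.2 FPKM, its noncoding share overlapped between the groups, at 22.8% and 25.2% against 27.2% and 14.05%.

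RPSA-207, an isoform of the gene for a small-subunit protein that is also known as the laminin receptor, had 145.2 and 37.1 FPKM in IgG RIP against 15.2 and 32.5 FPKM in KIAA1429 RIP. IgG RIP 1 again stood apart, and the share of RPSA was 29.3% there and 2.48% to 4.09% elsewhere. RPL37-202 had 28.2 and 78.3 FPKM in IgG RIP against 34.8 and 88.6 FPKM in KIAA1429 RIP, overlapping. VIM-205, from vimentin, an intermediate filament gene, had 87.0 and 54.1 FPKM in IgG RIP against 60.2 and 127.4 FPKM in KIAA1429 RIP, also overlapping. RTL8A-204, from a retrotransposon-derived gene with near-identical copies on the X chromosome, had 46.3 and 95.6 FPKM in IgG RIP against 29.6 and 53.7 FPKM in KIAA1429 RIP. The share of RTL8A was 73.0% and 83.0% in IgG RIP against 59.0% and 69.0% in KIAA1429 RIP, which did not overlap, with an adjusted p of 0.829 by limma.

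RTL8A was 1 of the 45 genes that were mostly noncoding in all libraries. POLR2A, the largest subunit of RNA polymerase II, had shares of 96.5%, 91.6%, 96.3% and 96.2%. Its member POLR2A-209 was 6741 bases long at chr17:7387685-7417933 and had 25.4 to 57.1 FPKM. The only other listed transcript, POLR2A-201, had the type protein_coding and 2083 bases, was at 1.19 to 2.34 FPKM and is a retained intron in the later annotation. The deposited types thus placed nearly all POLR2A signal on a long transcript called noncoding. MEAF6, a subunit of histone acetyltransferase complexes, had shares of 53.5% to 62.9%. NMNAT2, an enzyme of NAD synthesis, had 55.5% to 78.9%. NBPF1, a member of a multicopy gene family whose reads cannot be placed with certainty, had 66.4% to 75.7%. These genes other than RTL8A were named after their values were seen.

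Among the genes with a mean total of at least 5 FPKM, the largest non-overlapping differences lay in genes of low to moderate level, and they were picked by these values and are given as a description. CD40, a receptor of the TNF receptor family, had a share of 0% and 17.5% in IgG RIP against 100% and 95.5% in KIAA1429 RIP. The coding CD40-202 had 4.82 and 8.83 FPKM against 0 and 0.223 FPKM, and the noncoding isoforms summed to 0.988 and 4.67 FPKM in KIAA1429 RIP. Most of this was CD40-206, at 0.988 and 4.35 FPKM, which is a target of nonsense-mediated decay in the later annotation. PPP1R21, which takes part in endosome sorting, had 0% and 35.1% against 100% and 100%, and TRNAU1AP, a partner of selenocysteine tRNA, had 0% and 17.4% against 97.1% and 71.1%. In these 3 genes IgG RIP 1 was at 0% and IgG RIP 2 was not, and the noncoding FPKM stayed under 8 in every library. The gene total was only 0.988 FPKM for CD40 in KIAA1429 RIP 1 and 0.506 FPKM for TRNAU1AP in KIAA1429 RIP 2. The shares of 100% and 71.1% there rest on very little signal.

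PRPSAP2, a regulatory partner of phosphoribosyl pyrophosphate synthetase, was more even within groups. PRPSAP2-213, at chr17:18761462-18781158, was listed at 0 in both IgG RIP libraries and at 13.2 and 5.41 FPKM in KIAA1429 RIP, and the share was 0% and 0% against 64.6% and 61.1%. The coding PRPSAP2-201 had 8.43 and 7.49 FPKM in IgG RIP against 2.21 and 3.45 FPKM in KIAA1429 RIP. MRM2, a mitochondrial rRNA methyltransferase, had shares of 14.8% and 12.8% against 100% and 63.0%. NEK11, a kinase of the NIMA family, had 0% and 0% against 48.8% and 77.0%, from NEK11-212 at 4.16 and 7.82 FPKM. The NEK11 total in IgG RIP 1 was only 0.878 FPKM. The smallest of these 6 differences was 62.8 points (PRPSAP2), just above HSCB at 62.6 points.

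In the other direction, IFT43, a part of the ciliary transport complex, had shares of 100% and 61.3% in IgG RIP against 0% and 0% in KIAA1429 RIP. Its member IFT43-204 had 3.57 and 0.971 FPKM in IgG RIP, while the coding IFT43-202 was listed at 0 in IgG RIP against 4.89 and 14.6 FPKM in KIAA1429 RIP. The IFT43 total was only 3.566 and 1.585 FPKM in IgG RIP, against 10.35 and 15.07 FPKM in KIAA1429 RIP. Its shares in IgG RIP thus rest on little signal. NUDT14, a nucleotide-sugar hydrolase, had 72.0% and 74.2% against 0% and 1.96%, the closest replicates of the 6. Its coding transcript NUDT14-202 had 0.912 and 2.24 FPKM in IgG RIP against 5.39 and 18.4 FPKM in KIAA1429 RIP, and NUDT14-205 had 2.34 and 6.43 FPKM against 0 and 0.368 FPKM. C10orf88 had 100% and 75.2% against 14.6% and 34.4%. UCHL3, a deubiquitinating enzyme, had 100% and 27.1% against 1.28% and 2.40%, and TNFSF12, the TNF-family ligand TWEAK, had 100% and 22.8% against 0% and 0.336%. IMMP1L, a subunit of the inner mitochondrial membrane peptidase, had 100% and 93.8% against 10.2% and 64.8%. In IgG RIP 1 the whole TNFSF12 gene was at 0.140 FPKM, so that its 100% rests on very little signal, and without that library its difference was -22.7 in place of -61.3 points. For UCHL3, too, it was smaller without IgG RIP 1, at -25.3 in place of -61.7 points. For UCHL3 and TNFSF12 the spread within IgG RIP was over 70 points, larger than the gap between the groups. The smallest of these 6 was -59.4 points (IMMP1L), with SKIL next at -57.6 points.

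More abundant genes with large differences were looked up after the values were seen. Of 423 genes with a mean total of at least 50 FPKM, 47 had a higher (11.1%) and 81 a lower share (19.1%) without overlap, beside 11% and 14.2% of all genes, and the difference was at least 20 points in 5 and 6 of them. SRGN, the proteoglycan serglycin, had the largest. SRGN-202, at chr10:70847862-70864297, had 115.9 and 71.8 FPKM in IgG RIP against 19.9 and 16.1 FPKM in KIAA1429 RIP. The only other listed transcript, the coding SRGN-201, had 47.3 and 65.7 FPKM in IgG RIP against 176.2 and 146.3 FPKM in KIAA1429 RIP. The gene total thus overlapped, at 163.1 and 137.5 against 196.1 and 162.4 FPKM, and the share went from 71.0% and 52.2% to 10.1% and 9.90%. The log2 fold change of SRGN-202 was -2.29 ± 0.38 (SE), with an adjusted p of 0.514 by limma.

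CORO1C-210, from the actin-binding coronin 1C gene at chr12:109040765-109125294, had the lowest p of any member. It had 41.7 and 27.6 FPKM in IgG RIP but was listed at 0 in both KIAA1429 RIP libraries, with an adjusted p of 0.332 by limma. SSBP4-205 had a similar pattern, at 13.0 and 20.1 FPKM in IgG RIP and 0 in both KIAA1429 RIP libraries. EMP1-209, from the gene of epithelial membrane protein 1, went the other way, with 0.765 and 9.59 FPKM in IgG RIP against 33.7 and 16.9 FPKM in KIAA1429 RIP. All of SRGN-202, CORO1C-210, SSBP4-205 and EMP1-209 had 0 own bases and 1 own junction. PTPRF-215, from a receptor tyrosine phosphatase gene, had 646 own bases in 5887 and was at 8.04 and 4.55 FPKM in IgG RIP against 28.7 and 24.9 FPKM in KIAA1429 RIP.

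Of the study's 7 candidate targets, 6 had noncoding isoforms, and 1 of the 6 had shares without overlap, where 11% of all genes were higher and 14.2% lower. The study chose these genes partly on the present libraries, so they are no independent evidence of a direction. AKT2, a kinase of the PI3K pathway, had a share of 1.51% and 0% in IgG RIP against 12.8% and 26.4% in KIAA1429 RIP, a difference of 18.8 points ± 6.92 (SE) with an adjusted p of 0.829 by limma. The isoform behind it, AKT2-238, was low throughout, at 0.285 and 0 FPKM against 1.74 and 3.51 FPKM. GATA3, a transcription factor, had shares of 9.02% and 38.6% in IgG RIP against 32.4% and 14.2% in KIAA1429 RIP, and its member GATA3-204 is listed as protein_coding in the later annotation. CEP250, a centrosome protein gene, had 25.5% and 21.2% against 27.8% and 24.7%. TNFAIP2 had 6.83% and 30.6% against 55.4% and 3.99%, so its libraries differed more within groups than between them. MLPH had 9.08% to 23.5% and MSANTD3 had 0% to 7.88% over the 4 libraries, overlapping in both cases.

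Of 21 listed m6A enzymes and readers, 6 had noncoding isoforms, and 0 were higher and 1 lower without overlap. That was IGF2BP2, a reader that stabilises m6A-bearing mRNAs, with shares of 14.1% and 9.85% in IgG RIP against 3.91% and 0.14% in KIAA1429 RIP and an adjusted p of 0.829 by limma. Its 4 noncoding isoforms summed to 9.48 and 7.36 FPKM against 2.42 and 0.0829 FPKM, while the gene total was 67.0 and 74.8 against 62.0 and 59.3 FPKM. The related readers IGF2BP1 and IGF2BP3 had shares of 0% to 7.62% and 0% to 17.6%, and the decay-promoting reader YTHDF2 had 4.70% to 12.1%. ZC3H13, a subunit of the writer complex, had 25.6% in KIAA1429 RIP 1 and 0% in the other 3 libraries, and HNRNPA2B1 had 0% to 4.76%. The adjusted p of the genes named by rule lay between 0.274 and 0.995.

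Genes grouped by function were counted in the same way. Over all genes tested, 11% were higher and 14.2% lower without overlap. Of 24 genes that host small nucleolar RNAs (snoRNAs), 2 were higher (8.33%) and 7 lower (29.2%). Among the 7, NOP58, which codes for a protein of snoRNA particles, had shares of 22.8% and 33.5% in IgG RIP against 0% in both KIAA1429 RIP libraries, and its partner NOP56 had 48.4% and 85.4% against 44.5% and 42.6%. DKC1, which codes for the pseudouridine synthase dyskerin, had 39.4% and 46.5% against 30.5% and 32.7%. SNX5, a sorting nexin gene, was higher, at 3.30% and 5.38% against 38.3% and 20.2%.

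Of 26 genes of the respiratory chain, 2 were higher (7.69%) and 7 lower (26.9%), beside 11% and 14.2% of all genes. This list was drawn up by gene symbol and also holds assembly factors such as NDUFAF5. ATP5C1, a subunit of ATP synthase, had 45.5% and 63.8% in IgG RIP against 9.71% and 28.4% in KIAA1429 RIP, and COX7B, a subunit of cytochrome c oxidase, had 30.2% and 27.9% against 7.39% and 12.8%. Of 22 splicing factor genes, 1 was higher (4.55%) and 5 lower (22.7%). Among these, SF3A3, a U2 snRNP component, had 30.6% and 57.1% against 6.76% and 12.9%, and PRPF38A was the 1 higher gene, at 15.8% and 0% against 79.6% and 48.4%. The 50 zinc finger genes went the other way in count, with 11 higher (22%) and 6 lower (12%), although the median of their differences was -4.75 points, below the -1.22 points of all genes.

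The 35 ribosomal protein genes had 5 higher (14.3%) and 6 lower (17.1%), and their median share was low in every library, at 0.925% to 1.17%. Of 16 mitochondrial ribosomal protein genes, 1 was higher and 1 lower, of 11 proteasome genes 1 and 1, and of 5 glycolysis genes 0 and 0. Of 23 genes with EIF or EEF symbols, 2 were higher and 3 lower. Besides translation factors they include regulators such as the kinase gene EIF2AK4. At the adjusted threshold limma called 0 genes of each list, and at an unadjusted p under 0.05 it gave at most 3 higher (zinc finger genes) and 2 lower (respiratory chain). With lists of this size, these counts are a description and show nothing particular to a list.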

How the data were processed

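RIP-seq was measured in HCCLM3 cells in 2 IgG RIP and 2 KIAA1429 RIP libraries, grouped by the deposited labels. The authors selected and sequenced poly(A) RNA and, per their methods, used HISAT2 against GRCh37/hg19 for alignment, while the submitters' processing notes name Bowtie2 2.1.0. The authors deposited FPKM values per transcript. The FPKM estimator, the release of the annotation and the strandedness are not given in the sources used here. FPKM values depend on how reads of shared exons were divided among transcripts, and are not counts, so no count test was run. No separate cultures are named for the libraries, so p-values measure only the spread between these libraries.

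Noncoding shares (in percent, genes with a mean total of at least 1 FPKM and a total above 0 in all libraries) and log2(FPKM + 1) of transcripts (mean of at least 1 FPKM) were tested with limma 3.58.1 in R 4.3.3, two-sided, with Benjamini-Hochberg adjustment over all genes or transcripts tested. The transcript fit used a mean-variance trend. Single values per library were tested with the exact permutation test. The fits were also run on simulated normal values, which lack the bounds and zeros of the real values, so that run checks only the code. Other steps used Python 3.11.15, pandas 2.3.3 and scipy 1.17.1. Exons and types came from GENCODE release 44 lifted to GRCh37, with members matched by identifier, start and end and coding transcripts by identifier, and sequences from the GRCh37 assembly. Genes were named if they were member genes of the candidate or m6A lists, held 1 of the 8 most abundant members, or had 1 of the 6 largest differences in either direction among genes with a mean total of at least 5 FPKM without overlap. Up to 5 genes in either direction past the adjusted threshold would also have been named, and there were none. Other genes are marked or stand as examples of their list. The members and lists were chosen with earlier results of these data known. Alternatives were other pseudocounts, filters, scalings and denominators, a replicate block, and each library left out.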

Additional observations from a re-analysis of the deposited data

How the results depend on the processing

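The differences of the pooled share, of the median share and of the library percentage kept their sign in every alternative. As each library was left out they ranged from -2.04 to -0.764, from -2.93 to -0.73 and from -0.591 to -0.37 percentage points. For the pooled share and the library percentage the groups did not overlap, so leaving out 1 library could not turn the sign. The median difference was smallest without KIAA1429 RIP 2 and largest without KIAA1429 RIP 1. The number of genes with a called share was 0 in every alternative except without IgG RIP 1 (222 genes, 10 higher and 212 lower) and without IgG RIP 2 (185 genes, 9 higher and 176 lower). In those fits the spread comes from the KIAA1429 RIP pair alone and the lone IgG RIP library is assumed to vary like it, so the range over single libraries left out was 0 to 222. Called member transcripts numbered 0 throughout. Members at least 2-fold higher and lower numbered 1704 and 2157 without a filter and 59 and 63 where the mean had to reach 5 FPKM, when 318 members remained. They ranged from 539 to 965 higher and from 714 to 1208 lower as each library was left out. Without KIAA1429 RIP 1 or KIAA1429 RIP 2 the lower count, and without IgG RIP 1 or IgG RIP 2 the higher count, was the larger. The larger count thus lay with the group that kept both libraries, since a 0 in a lone library counts as a 2-fold difference. The replicate numbers 1 and 2 are shared by both groups, but with only 2 pairs and a correlation of deviations of -0.00052 for shares and 0.03 for transcripts, they were not taken as pairs, and with the replicate block 0 genes and 0 member transcripts were called.

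The difference of the share turned its sign as each library was left out in GATA3 (-15.3 to 14.3 points), MLPH (-5.95 to 8.42), MSANTD3 (-5.18 to 2.7), TNFAIP2 (-14.7 to 36.7), HNRNPA2B1 (-3.87 to 0.892), IGF2BP1 (-4.98 to 2.64), IGF2BP3 (-4.85 to 12.8), YTHDF2 (-1.48 to 5.73), RPL10A (-0.454 to 66.1), RPL7A (-23.6 to 3.86), RPS24 (-3.25 to 9.92) and RPL37 (-14.8 to 2.76). The other named genes kept their sign, except ZC3H13, which was at 0 without KIAA1429 RIP 1. Where the shares did not overlap between the groups, leaving out 1 library could not turn the sign. This holds for all genes chosen for the largest differences. With 2 libraries per group and unknown depth, even differences such as 89.0 points in CD40 and -80.6 points in IFT43 did not pass the adjusted threshold (adjusted p 0.274 and 0.571 by limma).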

Other observations

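Some members were listed in one group only, and they were picked here for these values. EIF3I-204, from a gene of translation initiation factor 3, was listed at 0 in both IgG RIP libraries and at 2.88 and 34.4 FPKM in KIAA1429 RIP. RPS27-203, from a small-subunit ribosomal protein gene, was at 14.6 and 9.48 FPKM in KIAA1429 RIP, SNX5-214 at 15.1 and 6.44 FPKM and STYXL1-210 at 10.7 and 5.01 FPKM, with both IgG RIP libraries at 0. In the other direction, FOS-209, from the immediate early gene FOS, had 1.69 and 21.7 FPKM in IgG RIP and 0 in both KIAA1429 RIP libraries. CKS1B-206, from a cell cycle gene, had 0.797 and 15.8 FPKM and SNX12-203 had 9.41 and 6.68 FPKM in IgG RIP, again with 0 in KIAA1429 RIP. Within the group where they were present, EIF3I-204, FOS-209 and CKS1B-206 differed over 10-fold between the libraries, unlike RPS27-203 and SNX12-203.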
